A study of Sus scrofa with 60 samples.

Results

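Liver of newborn and of weaning-age pigs was compared on 29 of the 60 arrays of a developmental series, namely the 15 arrays labelled 1 day post natum (dpn) and the 14 labelled 28 dpn. These arrays were chosen by their stage label alone, and no measured value entered the choice. All animals were German Landrace offspring of gilts that had received the adequate protein (AP) diet during pregnancy, and each array read the liver RNA of 1 animal. The newborns were the lightest and the heaviest of a litter and were killed under injected propionyl-promazine and ketamine on the day after birth. The weanlings came from the middle of the weight distribution, had been cross-fostered to sows outside the experiment, were fasted overnight and were bled after electronarcosis, and the males among them were castrated in the first week. Age, nursing by another sow, fasting, the way of killing and selection by weight therefore differ together between the stages and cannot be told apart. The labels give neither litter, sex nor weight, so that littermates entered the tests as independent animals and the p-values measure only the spread between these animals.

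The study followed the hepatic transcriptome over ontogenesis, and this step spans suckling, from the first day of life to weaning age. The liver of a newborn pig has just taken over ammonia disposal, glucose release and detoxification from the placenta and the dam, lives on a fat-rich milk, and still makes plasma proteins of the fetus. In the following weeks hepatocytes acquire the cytochromes of drug and steroid oxidation, their division slows, and lymphocytes settle in the sinusoids. Bulk tissue mixes these cells, and fewer cells of a type cannot be told apart from less RNA per cell.

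Levels are log2 of the intensity of a probe set after 16 had been added, where a probe set is the group of oligonucleotides that reads 1 transcript. Changes are 28 dpn minus 1 dpn on that scale, with their standard error (SE) after the ± sign, and adjusted p-values are those of limma over all 23999 probe sets. As a mark of background served the highest mean of the Tag control probe sets, 6.29 at 1 dpn and 5.73 at 28 dpn. Where the lower stage was at or under that mark, the change is given as "at least" or "or more", computed against the mark. A gene with more than 1 probe set is given by its brightest.

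Between 1 and 28 dpn 3755 probe sets (15.6%) rose and 7357 (30.7%) fell, and 875 of the former (3.65%) and 2181 of the latter (9.09%) did so at least 2-fold. For 595 probe sets (2.48%) every weanling lay above every newborn, and for 919 (3.83%) every weanling lay below. Among the 6765 named genes 1665 rose (24.6%) and 2120 fell (31.3%), with a median change of -0.10. At least 2-fold rises made up 5.85% of the genes and such falls 8.2%, and the stages did not overlap for 4.54% that rose and 4.66% that fell. These shares are the background for the gene groups that follow. How many rose and how many fell depends on the scaling. The arrays had been scaled to a common trimmed mean, but their median intensity was 148 ± 9.75 (SD, n = 15) in newborns and 116 ± 6.12 (SD, n = 14) in weanlings. Of the called probe sets 33.8% were higher at 28 dpn as deposited. The share was 63.8% when each array was centred on its median, which raised every change by about 0.31. After quantile normalization it was 51.1%, and the median shift of a probe set's change was 0.225. After median centring 2719 genes rose (40.2%) and 1083 fell (16%), and after quantile normalization 1986 rose (29.4%) and 1708 fell (25.2%). The direction of each gene group described was checked under both, and counts are given where it reversed.

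**Figure D1:**
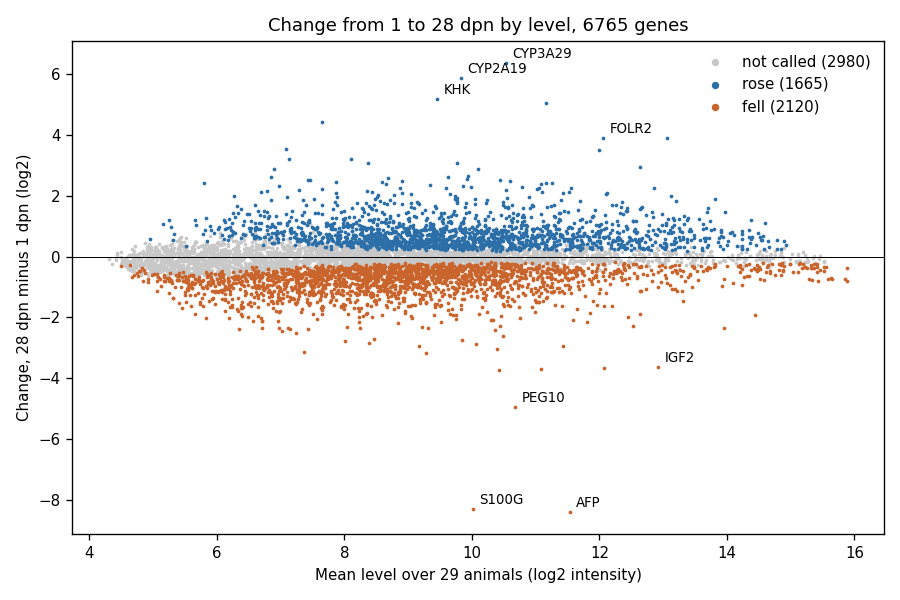
Change from 1 to 28 dpn (log2, vertical axis) against the mean level over the 29 animals (log2 intensity, horizontal axis) for 6765 genes, with genes that rose or fell at an adjusted p below 0.05 coloured. The genes that lie farthest from 0 are AFP and S100G among the 2120 falls and CYP3A29 and CYP2A19 among the 1665 rises.

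Control probe sets that read RNA integrity shifted with the stage as well. For actin the 3' over 5' signal, as a log2 ratio, ran from 1.14 over a median of 1.76 to 2.23 in newborns and from 2.85 over 3.52 to 4.41 in weanlings, without overlap. It rose by 1.79 (two-sided permutation test, p = 2e-05, the smallest that 100000 permutations can give, adjusted p = 2.8e-05 over 11 control measures). The 5' actin control alone fell by 1.71 (adjusted p = 2.8e-05), whereas the 3' and the middle control changed by 0.08 (adjusted p = 0.42) and -0.16 (adjusted p = 0.28). The ratios of GAPDH and of EF1A rose by 0.38 and 0.56 (adjusted p = 2.8e-05 for both). Controls for ribosomal RNA moved too, and not all in the same direction. One 18S control rose by 4.82 and another fell by 1.97, and both 28S controls rose, by 2.39 and 1.91 (adjusted p = 2.8e-05 for each).

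Probe sets of a single gene could also move apart. ACTB, cytoplasmic actin, chosen for this after its values were seen, has a probe set that fell by 2.37 ± 0.09 (adjusted p = 4.4e-19) and another that rose by 2.14 ± 0.11 (adjusted p = 6.9e-16), while the mean of the 3' actin control was 14.57 and then 14.64. Of 2261 genes with more than 1 probe set, 248 had probe sets called in both directions, and of the 1005 genes with at least 2 called probe sets 757 had all of them on the same side. With the actin ratio of each array in the model 1000 of 23999 probe sets rose and 1606 fell, against 3755 and 7357 without it. Of the 11112 calls 2455 were then made in the same direction and 0 in the other, although the sign of 526 turned. Counts of a gene group under that model are to be read against this loss of calls over all probe sets. Of the 174 genes for which the text gives a value 56 were no longer called and 5 changed sign, and those 5 are noted where they are named. Since the ratios of the stages do not overlap, ratio and stage cannot be told apart, and the part of the ratio in any single change was not tested.

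**Figure D2:**
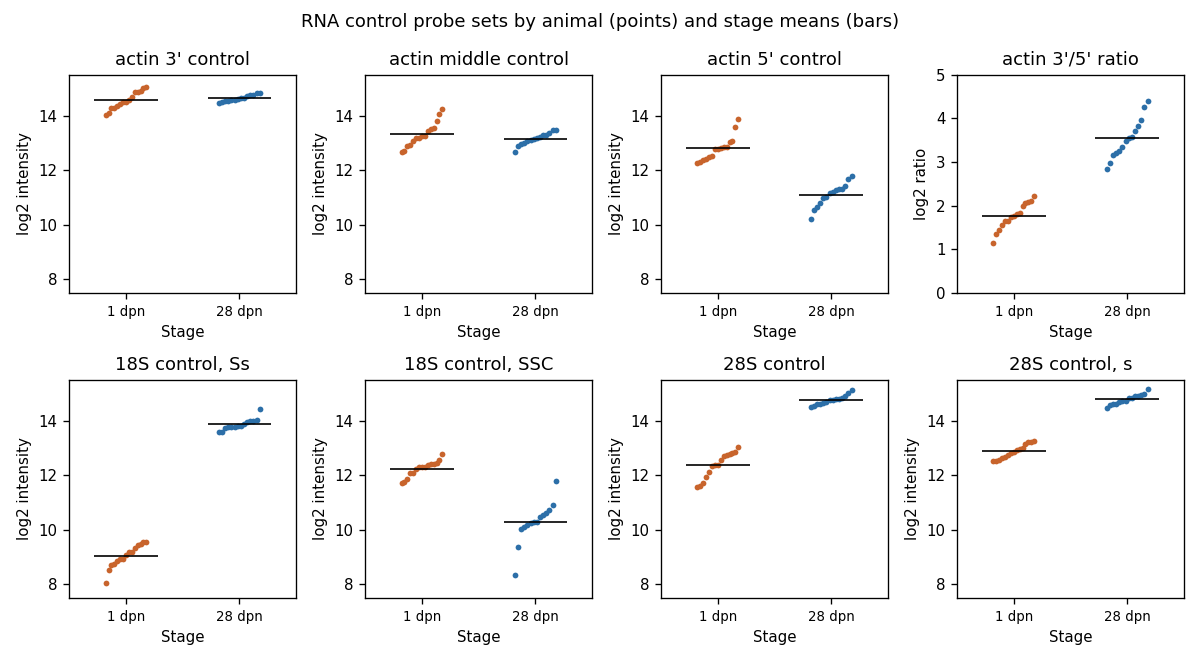
Levels of actin, 18S and 28S control probe sets and the log2 3'/5' actin ratio (log2 scale, vertical axis) in each animal at 1 dpn (15) and 28 dpn (14), with the stage mean as a bar. The 3' actin control has means of 14.57 and 14.64, whereas the 5' control falls from 12.81 to 11.10, and the 2 controls for 18S move in opposite directions.

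The deepest falls were those of fetal transcripts. AFP, the albumin of the fetus, ranged from 15.30 over a median of 15.54 to 15.91 in newborns and from 5.94 over 6.98 to 8.28 in weanlings. No animal of 28 dpn came near any newborn, and AFP fell by 8.41 ± 0.21, or 339-fold (adjusted p = 4.9e-24). Its mean had been 15.84 before birth, at 94 days post conceptionem (dpc), and was 5.06 at 188 dpn, with little change before 1 dpn. S100G, the small calcium-binding protein calbindin-D9k, ranged from 11.48 over 14.12 to 15.59 in newborns and from 4.20 over 4.96 to 9.56 in weanlings. It fell by 8.29 or more, at least 313-fold (adjusted p = 1.8e-14), yet the weanlings were uneven: 9 of the 14 lay at or under the background mark and the other 5 above it. A dimmer second probe set of S100G also fell by 1.53 ± 0.16.

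PEG10, an imprinted gene of retroviral origin that is active in placenta and fetal liver, ranged from 11.41 over 13.45 to 14.38 in newborns and from 6.97 over 8.22 to 10.27 in weanlings. It fell by 4.97 ± 0.31, or 31.3-fold (adjusted p = 5.3e-14), and its other 2 probe sets fell as well. IGF2, the fetal growth factor, ranged from 14.32 over 14.71 to 15.26 and then from 10.33 over 10.97 to 12.17, and it fell by 3.65 ± 0.14, or 12.6-fold (adjusted p = 5.8e-19). Of its 13 probe sets 10 fell, 1 rose from below the background mark, and 2 were not called. Among the 10 measured genes of the fetal and imprinted group 6 fell and 1 rose, with a median change of -0.70 against -0.10 for all genes. The riser was MDK, the growth factor midkine, with 1.40 ± 0.20 (adjusted p = 1.1e-06).

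The other deep falls held enzymes of amino acid synthesis and breakdown. ASNS, which makes asparagine, ranged from 12.19 over 12.81 to 13.60 in newborns and from 8.09 over 9.28 to 10.57 in weanlings, and it fell by 3.71 ± 0.22, or 13.0-fold (adjusted p = 9.3e-15). HPD, a dioxygenase of tyrosine breakdown, ranged from 12.58 over 13.86 to 14.76 and then from 9.55 over 10.27 to 10.95, and it fell by 3.65 ± 0.21 (adjusted p = 6.3e-15). The stages overlapped for neither gene. Their courses over the series were unlike, since ASNS stood at 13.18 at 94 dpc and 8.04 at 188 dpn, whereas HPD stood at 6.14 before birth and 11.15 at 188 dpn. Some further enzymes of serine and proline synthesis, picked after their values were seen, were lower too: PHGDH fell by 1.63 ± 0.23, PSPH by 1.56 ± 0.20 and ALDH18A1 by 1.71 ± 0.16 (adjusted p = 8.3e-07, 1.7e-07 and 4.0e-10). PSAT1, also of serine synthesis, went the other way and was called higher. In the whole group of amino acid breakdown and synthesis 9 of 29 genes rose and 8 fell, or 8 and 10 after quantile normalization.

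The 15 deepest falls without overlap also held TMED3, a cargo receptor of the secretory pathway, with a change of -3.19 ± 0.21, and HM13, the signal peptide peptidase, with -3.05 ± 0.14. HSPA13, a microsomal relative of the major heat shock proteins, changed by -2.95 ± 0.24, and its second probe set by -2.94 ± 0.21. The RNA helicases DDX39B and DHX9 changed by -2.87 ± 0.09 and -2.79 ± 0.18, and ENPEP, an aminopeptidase that cleaves angiotensin, by -2.84 ± 0.31. The list closes with CKB, brain-type creatine kinase (-2.76 ± 0.17), IL13RA1, an interleukin receptor chain (-2.71 ± 0.12), and ISYNA1, which makes inositol (-2.62 ± 0.30). Of these 15 genes 13 stood lower still at 188 dpn.

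The steepest rises belonged to cytochromes P450. CYP3A29, a main oxidase of drugs and steroids in the pig, ranged from 6.60 over 7.28 to 9.49 in newborns and from 12.83 over 13.80 to 14.57 in weanlings, and it rose by 6.37 ± 0.23, or 82.7-fold (adjusted p = 8.2e-20). CYP3A46 ranged from 7.65 over 8.82 to 9.84 and then from 12.90 over 13.94 to 14.16, a rise of 5.04 ± 0.19 (adjusted p = 3.1e-19). CYP3A39 was already at 11.18 ± 0.97 (SD) at 1 dpn and reached 15.07 ± 0.14, a rise of 3.89 ± 0.25 (adjusted p = 1.2e-13). None of the 3 had overlapping stages, and all 3 were higher still at 188 dpn. Members of the CYP3A family are close in sequence, so that a probe set may read more than its own gene.

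CYP2A19, which clears the boar taint compound skatole, ranged from 6.39 over 6.99 to 7.57 in newborns and from 10.63 over 13.30 to 14.70 in weanlings. It rose by 5.88 ± 0.34, or 58.7-fold (adjusted p = 6.6e-15). The newborns lay within little more than 1 unit, whereas the weanlings spread over 4 units, with an SD of 1.31 against 0.40, and the mean went on to 15.33 at 188 dpn.

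KHK, ketohexokinase, which traps fructose in the liver, ranged from 5.61 over 7.08 to 7.81 in newborns and from 11.16 over 12.20 to 12.51 in weanlings, a rise of 5.20 ± 0.20, or 36.7-fold (adjusted p = 3.0e-19). Its mean at 94 dpc was 6.16, so the gene stood low in the fetus and in the newborn and high from 28 dpn on. TKFC, the triokinase that takes up the next product of fructose, rose by 0.74 ± 0.20 (adjusted p = 0.0025). SLC2A5, the fructose transporter, lay under the background mark at both stages, after a mean of 9.58 before birth.

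FOLR2, the folate receptor of macrophages, ranged from 9.71 over 10.11 to 11.04 in newborns and from 13.57 over 14.00 to 14.58 in weanlings, and it rose by 3.89 ± 0.14, or 14.8-fold (adjusted p = 5.2e-20). GNLY, the granulysin of cytotoxic lymphocytes, ranged from 4.58 over 5.25 to 7.29 and then from 7.92 over 9.84 to 11.13, a rise of at least 3.66, or 12.6-fold (adjusted p = 1.5e-12). SLC17A1, a phosphate and urate transporter, rose by at least 2.51, and OVGP1, oviductal glycoprotein 1, by at least 2.10, both from background. The remaining rises without overlap among the top 15 were 2 uncharacterised loci (LOC100621559, 3.07 ± 0.18, and LOC100518620, 3.07 ± 0.18), PLAC8 (2.67 ± 0.30), the secreted protein TSKU (2.63 ± 0.20), RGCC (2.54 ± 0.23) and FBLN1, the matrix protein fibulin 1 (2.51 ± 0.20). Of the 11 probe sets of LOC100621559 6 were called higher and 1 lower. Of the 15 steepest rises 12 stood higher still at 188 dpn.

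**Figure D3:**
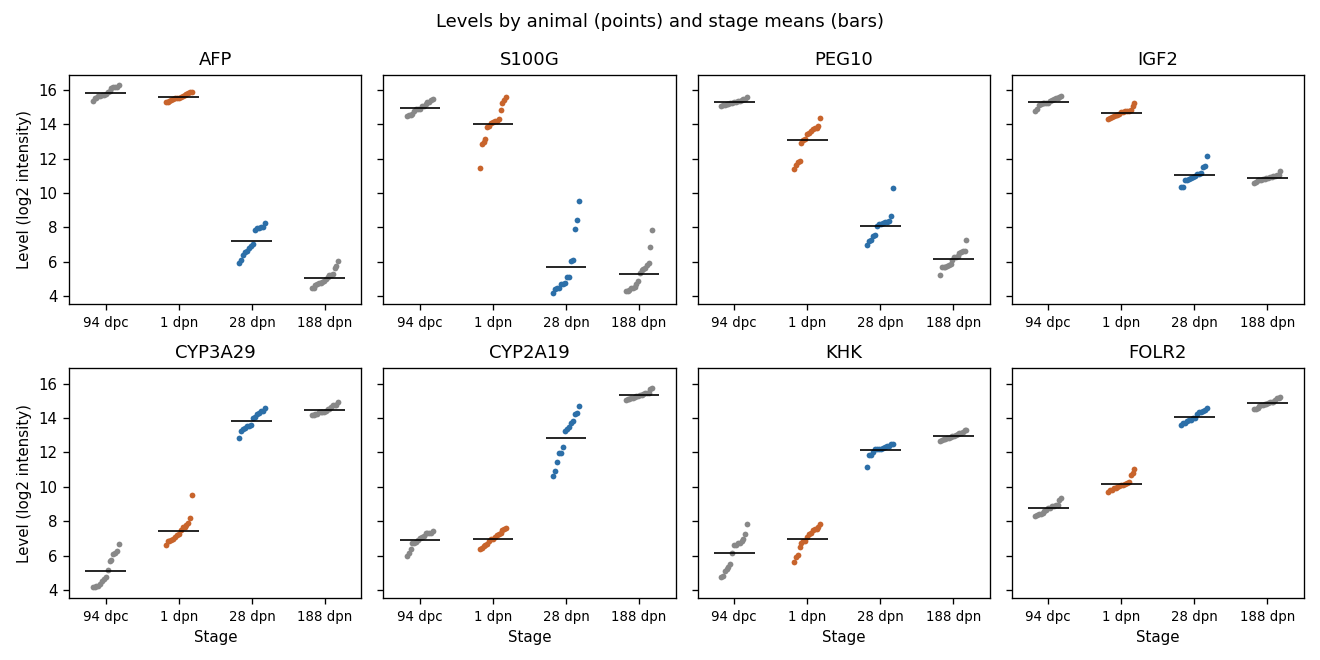
Level (log2 intensity, vertical axis) of 8 genes in each animal of the 4 stages, with 1 and 28 dpn in colour, 94 dpc and 188 dpn in grey and the stage mean as a bar. AFP, S100G, PEG10 and IGF2 fall and CYP3A29, CYP2A19, KHK and FOLR2 rise, and in none of the 8 does an animal of 28 dpn overlap the newborns.

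Other genes of xenobiotic metabolism rose as well. Of 34 measured genes of phase I, in which a drug is oxidised or hydrolysed, 19 rose and 2 fell, with a median change of 0.47. The 2 falls were MAOA (-0.69 ± 0.11) and ADH5 (-0.50 ± 0.07), the latter not called after median centring. CYP2E1, the ethanol oxidase, was at 14.52 ± 0.49 (SD) in newborns and 15.06 ± 0.12 in weanlings, and it rose by 0.54 ± 0.14 (adjusted p = 0.0016), although its change was -0.21 with the actin ratio in the model. Of 17 genes of phase II, which attach soluble groups, 7 rose and 2 fell, with a median of 0.34. The glutathione transferases MGST3, GSTA1 and GSTK1 rose by 1.35 ± 0.10, 1.11 ± 0.27 and 1.05 ± 0.13. SULT1E1, which inactivates oestrogens, fell by 1.25 ± 0.19, from 10.82 to 9.57, after 6.04 at 94 dpc.

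Among nuclear receptors NR1I2, the pregnane X receptor that governs some of these enzymes, went the other way. It fell by 1.56 ± 0.11 (adjusted p = 4.5e-13), without overlap between the stages. PPARA, the fatty acid receptor, fell by 1.87 or more to the background level (adjusted p = 3.6e-08), and RARB, a retinoic acid receptor, by 1.57 ± 0.20. HNF4A, a master regulator of hepatocyte genes, rose by 0.79 ± 0.11 without overlap (adjusted p = 3.6e-07), and CEBPD by 1.18 ± 0.18, the latter not called for the median of its 3 probe sets. NR1I2, RARB and HNF4A each have 2 probe sets, of which only 1 was called. Of 38 receptors and hepatic transcription factors 12 rose and 14 fell, which turned to 17 and 6 after median centring and 13 and 9 after quantile normalization.

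Bile acid genes moved in both directions. CYP7A1, the rate-limiting enzyme of bile acid synthesis, ranged from 4.16 over 4.86 to 9.36 in newborns and from 4.30 over 7.69 to 10.78 in weanlings. It rose by at least 1.63 (adjusted p = 0.0015), with wide overlap. CYP27A1 and AMACR, which work on the side chain, rose by 1.05 ± 0.11 and 1.12 ± 0.13, both without overlap, although the median over the 3 probe sets of CYP27A1 changed by -0.04. Among the canalicular exporters ABCB11, the bile salt pump, fell by 1.68 ± 0.21 (adjusted p = 6.6e-08) and ABCC2 by 1.06 ± 0.13 without overlap (adjusted p = 2.8e-08). In all 6 of 14 genes of bile acid synthesis and transport rose and 5 fell, or 5 and 5 after quantile normalization.

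Genes of fat handling moved apart as well. PLIN2, which coats lipid droplets, ranged from 11.25 over 13.02 to 14.16 in newborns and from 9.22 over 9.77 to 11.99 in weanlings, and it fell by 2.96 ± 0.28 (adjusted p = 3.6e-10). DGAT2, which completes triglycerides, ranged from 9.19 over 10.13 to 10.71 and then from 11.69 over 12.21 to 12.53, a rise of 2.13 ± 0.14 without overlap (adjusted p = 2.3e-13). ACSL3 and MTTP, which activate fatty acids and load lipoproteins, fell by 1.91 ± 0.22 and 0.97 ± 0.23. For the lipogenic enzymes FASN and SCD the changes were 0.48 ± 0.26 (adjusted p = 0.13) and -0.55 ± 0.28 (adjusted p = 0.11). Of the 4 probe sets of FASN 2 were called lower and 0 higher. Of 27 genes of fatty acid and triglyceride synthesis 5 rose and 6 fell, or 11 and 4 after median centring.

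Fatty acid oxidation had 14 of 37 genes rising and 13 falling, or 12 and 15 after quantile normalization. ACAA2 and ECI1, late enzymes of the mitochondrial spiral, rose by 1.37 ± 0.23 and 1.30 ± 0.09, and ANGPTL4, which restrains lipoprotein lipase, rose by 1.00 ± 0.25. CPT1A, the gate of mitochondrial uptake, rose by 0.42 ± 0.17 (adjusted p = 0.044), which quantile normalization did not call. ACSL4, which activates arachidonic acid, fell by 2.15 ± 0.29, and the coactivator PPARGC1A fell by 0.98 ± 0.19 (adjusted p = 8.3e-05). Of 13 genes of cholesterol synthesis 4 rose and 1 fell. HMGCS1, an early enzyme of that route, had means of 10.23 ± 1.38 (SD) and 10.21 ± 1.38 (adjusted p = 0.98). APOF rose by 1.89 ± 0.14 without overlap, whereas the cholesterol exporter ABCA1 and hepatic lipase LIPC fell by 1.31 ± 0.14 and 1.62 ± 0.11, also without overlap, and of 19 genes of lipoprotein handling 4 rose and 10 fell.

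Among genes of glucose release and nitrogen disposal, PCK1, which commits oxaloacetate to glucose, rose by 0.47 ± 0.13 (adjusted p = 0.0029), with -0.22 when the actin ratio was in the model. The glucose transporter SLC2A2 fell by 0.82 ± 0.12, and MDH1, cytosolic malate dehydrogenase, fell by 1.48 ± 0.10 without overlap. Of 25 genes of gluconeogenesis and glycogen 4 rose and 7 fell, which turned to 8 and 2 after median centring. In the group of the urea cycle and ammonia disposal 2 of 8 genes rose and 3 fell, and after median centring 3 rose and 1 fell. The 3 falls were those of the cycle enzymes ARG1, OTC and ASS1, and the cycle enzymes CPS1 and ASL were not called. ARG1, which releases urea, fell by 1.07 ± 0.23 (adjusted p = 0.00024), OTC fell by 0.51 ± 0.16, which median centring did not call, and the entry enzyme CPS1 changed by -0.31 ± 0.16 (adjusted p = 0.11). The 2 risers lie outside the cycle: RHBG, an ammonia transporter, rose by 1.61 ± 0.26, and GLUL, which makes glutamine, was called higher. Of the 3 probe sets of GLUL 1 was called higher and 1 lower. In one-carbon metabolism 11 of 20 genes rose and 5 fell, with SHMT1 up by 1.52 ± 0.14 without overlap, although its second probe set was called lower, and PEMT, which makes phosphatidylcholine, down by 1.00 ± 0.12. Branched-chain degradation had 6 of 19 genes rising and 3 falling, where 24.6% of all genes rose and 31.3% fell. Among the risers was HSD17B10 with 0.90 ± 0.11. With the actin ratio in the model 0 of the 19 were called, where 1000 of all 23999 probe sets rose and 1606 fell.

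Plasma proteins of the hepatocyte shifted in both directions. The 10 hepatocyte markers were all bright, and their mean level ran from 14.96 to 15.64 in newborns and from 14.55 to 15.10 in weanlings, in keeping with the labelled tissue. Of them 7 fell and 0 rose as deposited, 3 fell and 1 rose after median centring, and 5 fell and 2 rose after quantile normalization. ALB, albumin, ranged from 15.88 over 16.26 to 16.63 and then from 15.25 over 15.44 to 15.92, and it fell by 0.79 ± 0.09 (adjusted p = 1.7e-08), and TTR, the carrier of thyroxine, changed by 0.06 ± 0.09 (adjusted p = 0.62). Among complement proteins and their regulators, MBL2, a lectin that starts complement, rose by 2.89 ± 0.37 (adjusted p = 1.2e-07), C8G, a chain of the membrane attack complex, by 2.01 ± 0.12, and C4BPA, which restrains the classical pathway, by 1.82 ± 0.14, the latter pair without overlap. C5 fell by 0.81 ± 0.19. In the whole group of complement, coagulation and inhibitors 22 of 54 genes rose and 15 fell. With the actin ratio in the model 9 rose and 10 fell, where 1000 of all 23999 probe sets rose and 1606 fell.

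HAMP, hepcidin, the hormone that blocks iron export, had the widest spread at 28 dpn of the genes named here. It ranged from 7.88 over 12.35 to 14.00 in newborns and from 4.81 over 7.66 to 13.84 in weanlings. The stages overlapped over most of their range, with an SD of 2.90 at 28 dpn, and HAMP fell by 3.73 ± 0.80 (adjusted p = 0.00028), although its change was 0.78 with the actin ratio in the model. The mean returned to 13.06 at 188 dpn. TFRC, the transferrin receptor, fell by 1.07 or more to background (adjusted p = 0.00048). ALAD, an enzyme of heme synthesis, rose by 1.79 ± 0.14 without overlap. Among acute phase genes CRP rose by 1.47 ± 0.35 and APCS fell by 0.95 ± 0.16, and of 25 such genes 4 rose and 11 fell, which turned to 11 and 6 after median centring and 8 and 6 after quantile normalization.

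Among genes of the growth hormone axis, IGF1 ranged from 7.09 over 7.86 to 8.47 in newborns and from 7.01 over 8.78 to 10.06 in weanlings, a rise of 0.93 ± 0.25 (adjusted p = 0.0024). GHR, the growth hormone receptor, rose by 1.02 ± 0.17 (adjusted p = 5.5e-06), and IGFALS, which holds IGF1 in the circulation, rose by 1.50 ± 0.26 (adjusted p = 1.5e-05). All 3 still overlapped between the stages. IGF2R, which removes IGF2, fell by 1.21 ± 0.14 without overlap, and the binding protein IGFBP1 fell by 1.13 ± 0.29. The whole group of 16 had 4 genes rising and 6 falling, or 7 and 4 after median centring. HSD11B1, which reactivates cortisol, rose by 0.69 ± 0.08 (adjusted p = 3.3e-08).

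**Figure D4:**
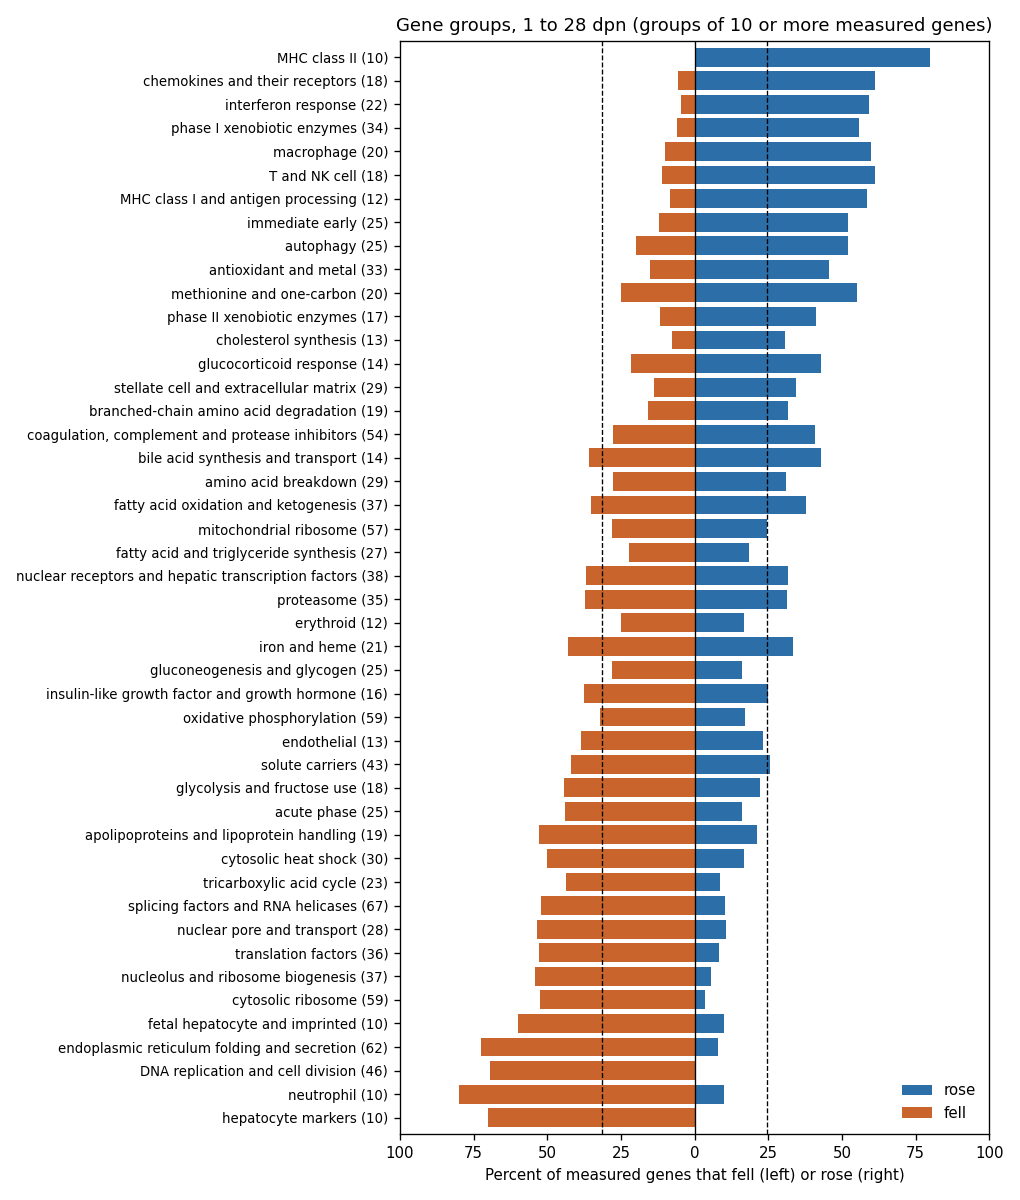
Share of the measured genes of each group that rose (to the right) or fell (to the left) from 1 to 28 dpn, in percent, for groups of 10 or more measured genes, with that number in brackets. Dashed lines mark the shares over all 6765 genes, 24.6% and 31.3%, and groups are ordered by the share that rose minus the share that fell, from MHC class II at the top to hepatocyte markers at the bottom.

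Genes of immune cells rose in most groups. Of 10 genes of MHC class II, which present antigen on macrophages, dendritic cells and B cells, 8 rose and 0 fell, with a median change of 1.63, and 6 rose with the actin ratio in the model. SLA-DRA ranged from 8.84 over 9.93 to 10.97 in newborns and from 11.44 over 12.38 to 13.15 in weanlings, a rise of 2.40 ± 0.22 without overlap (adjusted p = 1.3e-10). SLA-DQB1 and SLA-DQA1 rose by 2.50 ± 0.24 and 2.29 ± 0.20, also without overlap. In MHC class I and antigen processing 7 of 12 genes rose and 1 fell, with SLA-3 up by 2.09 ± 0.23 and SLA-6 by 2.05 ± 0.18. The 1 fall was that of B2M, the invariant light chain, with 0.33 ± 0.13 on its brightest probe set, whereas the median over its 9 probe sets was 0.84 higher at 28 dpn and neither scaling alternative called the brightest.

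Macrophage genes rose in 12 of 20 cases and fell in 2, with a median of 1.20, and 9 rose with the actin ratio in the model. The mean level of the group ran from 8.94 to 9.53 in newborns and from 9.72 to 10.59 in weanlings, without overlap. FCGR3A, an Fc receptor, ranged from 9.85 over 10.46 to 11.20 and then from 11.96 over 12.50 to 13.00, a rise of 2.10 ± 0.14 without overlap (adjusted p = 2.8e-13). CD83 rose by at least 2.15 and the sialic acid receptor SIGLEC1 by at least 0.77. The scavenger receptors CD163 and MRC1, both of resident macrophages, fell by 0.48 ± 0.15 and 0.68 ± 0.14, of which median centring did not call the former. CD14, a further marker of the lineage, changed by 0.02 ± 0.12 (adjusted p = 0.91), and C1QC rose by 1.60 ± 0.13.

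T and natural killer cell genes rose in 11 of 18 cases and fell in 2, with a median of 0.82, and 2 rose with the actin ratio in the model. CD8A rose by at least 1.93 and the receptor KLRK1 by at least 0.91. The T cell receptor chains CD3D, CD3E and CD3G rose by 1.47 ± 0.25, at least 0.64 and at least 0.54 (adjusted p = 1.2e-05, 0.0041 and 0.0024), although the change of CD3G was -0.14 with the actin ratio in the model. PTPRC, the common leukocyte antigen, fell by 0.92 or more to background (adjusted p = 0.00073), with a change of 0.05 when the actin ratio was in the model. JCHAIN, the joining chain of secreted antibodies, rose by at least 2.46 without overlap. Only 5 genes of B and plasma cells were measured, and 2 of them rose.

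Of 18 chemokines and receptors 11 rose and 1 fell, and the median was 1.12. CCL19, which draws T cells and dendritic cells, ranged from 5.49 over 7.40 to 8.82 in newborns and from 8.70 over 9.96 to 10.72 in weanlings, a rise of 2.47 ± 0.28 (adjusted p = 1.7e-08). CCL4 rose by 2.36 ± 0.21 without overlap and CXCL9 by 2.15 ± 0.31. Of 22 interferon response genes 13 rose and 1 fell (median 0.81), and 2 rose with the actin ratio in the model. ISG12(A) rose by 3.52 ± 0.35 (adjusted p = 1.2e-09) and ISG15, which tags proteins in infected cells, by 2.41 ± 0.43 (adjusted p = 2.3e-05). The animals of both stages were spread widely, from 8.61 over 10.14 to 12.84 and from 10.58 over 12.41 to 14.50 for ISG15. Stages without overlap occurred for 0 of the 22 genes, where 4.54% of all genes rose and 4.66% fell without overlap. EIF2AK2, the RNA-activated kinase PKR, was the 1 that fell, by 1.48 ± 0.23.

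Of 10 measured neutrophil genes 8 fell and 1 rose (median -0.96). Only 4 fell after median centring, 4 after quantile normalization and 2 with the actin ratio in the model. NPG4, protegrin 4, ranged from 9.11 over 10.79 to 13.18 in newborns and from 6.95 over 8.74 to 10.12 in weanlings, and it fell by 2.06 ± 0.37 (adjusted p = 3.2e-05), and S100A9 fell by 1.64 ± 0.28. The riser was DEFB1, a defensin that epithelia also make, with 2.25 ± 0.23. Of the erythroid genes, which mark blood formation in the fetal liver, 2 of 12 rose and 3 fell, which turned to 6 and 1 after median centring and 4 and 2 after quantile normalization. In the group of stellate cells and matrix 10 of 29 genes rose and 4 fell, with COL6A3 up by 1.27 ± 0.16 and POSTN down by 1.20 ± 0.23. With the actin ratio in the model 1 of the 29 rose and 1 fell. Among endothelial genes CDH5 rose by 1.42 ± 0.11 and ENG fell by 1.32 ± 0.11, both without overlap, although a second probe set of CDH5 was called lower. Of the endothelial genes 3 of 13 rose and 5 fell, or 6 and 4 after median centring. Genes of tissues next to the liver were low: 6 of 9 muscle genes and 5 of 7 pancreas genes were near background at both stages.

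**Figure D5:**
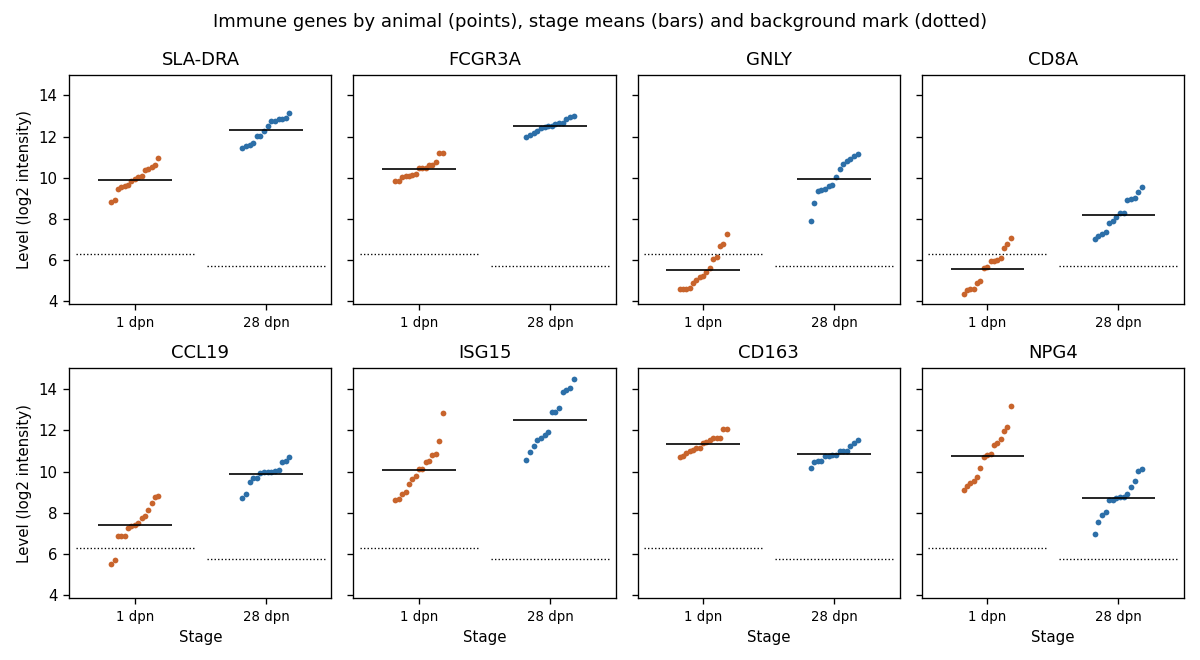
Level (log2 intensity, vertical axis) of 8 immune genes in each animal at 1 dpn (15) and 28 dpn (14), with the stage mean as a bar and the background mark as a dotted line per stage. SLA-DRA, FCGR3A, GNLY, CD8A, CCL19 and ISG15 rise, whereas CD163 and NPG4 fall with overlap between the stages.

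Genes of DNA replication and cell division fell or were not called. Of 46 measured genes 32 fell and 0 rose (median -0.76), and 17 fell and 2 rose after median centring. TOP2A, the topoisomerase of dividing cells, ranged from 7.27 over 9.14 to 10.73 in newborns and from 6.37 over 7.69 to 8.56 in weanlings, and it fell by 1.48 ± 0.29 (adjusted p = 7.6e-05). NDC80 and MAD2L1, which attach and monitor chromosomes in mitosis, fell by 1.46 ± 0.19 and 1.45 ± 0.24. With the actin ratio in the model 5 fell, and for 0 of the 46 genes were the stages apart, against 4.66% of all genes that fell without overlap. The group's mean level spread from 8.02 to 10.10 among newborns and from 7.82 to 9.23 among weanlings.

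Most genes of the secretory machinery fell. Of 62 genes of endoplasmic reticulum folding and secretion 45 fell and 5 rose (median -0.55), and 28 fell and 12 rose after median centring. With the actin ratio in the model 22 fell. KDELR2, which returns chaperones to the endoplasmic reticulum, ranged from 12.11 over 12.56 to 13.70 in newborns and from 9.93 over 10.47 to 10.99 in weanlings, and it fell by 2.08 ± 0.13 without overlap (adjusted p = 9.2e-14), and of its 3 probe sets 2 were called lower and 1 higher. The cochaperones DNAJC3 and DNAJB11 fell by 1.94 ± 0.11 and 1.66 ± 0.14, also without overlap. CALR, the calcium-binding chaperone calreticulin, went against them and rose by 1.70 ± 0.12 without overlap (adjusted p = 5.3e-13), as did RPN1, a subunit of the glycosylation complex, by 0.84 ± 0.11. In the cytosol 15 of 30 heat shock genes fell and 5 rose, or 8 and 7 after median centring. The chaperonin subunits CCT6A and TCP1 fell by 1.40 ± 0.17 and 1.01 ± 0.09, and the small heat shock proteins CRYAB and HSPB8 rose by 2.17 ± 0.19 and 1.46 ± 0.15, all 4 without overlap.

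In RNA processing, of 67 splicing factors and RNA helicases 35 fell and 7 rose (median -0.37), and 22 fell and 15 rose after median centring. DDX39B, a helicase of splicing and mRNA export, ranged from 11.17 over 11.48 to 11.83 in newborns and from 8.23 over 8.51 to 9.01 in weanlings, with the smallest SE of the 15 deepest falls. HNRNPL rose by 1.84 ± 0.33. Nuclear transport had 15 of 28 genes falling and 3 rising, with KPNA3 and CSE1L down by 1.38 ± 0.18 and 1.32 ± 0.11, and ribosome assembly had 20 of 37 falling and 2 rising, with NOP58 down by 1.50 ± 0.17. After median centring 9 rose and 9 fell in the former group, and 10 rose and 12 fell in the latter.

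The direction of translation and respiration groups depended on the scaling, as it did over all genes. Of all genes 24.6% rose and 31.3% fell as deposited. After median centring 40.2% rose and 16% fell, and after quantile normalization 29.4% and 25.2%. Cytosolic ribosomal proteins fell in 31 of 59 cases and rose in 2, with a median of -0.23, but 16 rose and 8 fell after median centring. RPL4 fell by 0.88 ± 0.09 without overlap and RPL37 rose by 1.03 ± 0.14. Translation factors fell in 19 of 36 cases and rose in 3, or 10 and 11 after median centring, with EIF1AX and EIF3B down by 1.55 ± 0.15 and 1.38 ± 0.10, both without overlap, and EEF1A1 up by 1.05 ± 0.12. In oxidative phosphorylation 10 of 59 genes rose and 19 fell, which turned to 26 and 8 after median centring and was 4 and 29 after quantile normalization. CYCS, cytochrome c, fell by 1.49 ± 0.14 and NDUFS1, a core subunit of complex I, by 1.27 ± 0.10, both without overlap, and SDHC, a subunit of complex II, rose by 0.81 ± 0.09 without overlap. In the citric acid cycle 2 of 23 genes rose and 10 fell, or 11 and 6 after median centring. IDH3A, the catalytic subunit of isocitrate dehydrogenase, ranged from 8.61 over 9.13 to 9.93 in newborns and from 5.64 over 6.93 to 7.64 in weanlings, and it fell by 2.34 ± 0.16 (adjusted p = 2.4e-13). Proteasome subunits were split, with 11 of 35 rising and 13 falling, or 16 and 8 after median centring.

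Lysosomal and autophagy genes rose in 13 of 25 cases and fell in 5, with a median of 0.30, and 4 rose and 2 fell with the actin ratio in the model. The cargo receptor SQSTM1 rose by 1.25 ± 0.10, the lysosomal membrane protein LAMP1 by 0.87 ± 0.08 and the protease CTSD by 0.85 ± 0.09, all without overlap. TP53INP2, a nuclear regulator of autophagosome formation, fell by 1.72 ± 0.21 and BECN1, which starts the membrane, by 0.78 ± 0.08. Genes against oxidation rose in 15 of 33 cases and fell in 5, with PRDX6, which reduces lipid peroxides, up by 1.64 ± 0.17 and TXNRD1 by 0.94 ± 0.11. With the actin ratio in the model 3 of these 33 genes rose and 3 fell.

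Clock and early response genes moved as well, although the hour of sampling is not in the labels. ARNTL, the positive arm of the clock, ranged from 7.68 over 8.85 to 9.29 in newborns and from 6.11 over 7.47 to 8.39 in weanlings, and it fell by 1.49 ± 0.20 (adjusted p = 1.9e-07). CRY2, a repressor of the clock, and DBP, one of its outputs, rose by 1.49 ± 0.20 and 1.27 ± 0.15. RORA, which drives ARNTL, fell by 1.61 ± 0.17 without overlap. Of 25 immediate early genes 13 rose and 3 fell, with a median of 0.53, among them NFKBIA, the inhibitor of NF-kappa B, up by 1.40 ± 0.12 without overlap, and BTG2 down by 1.49 ± 0.18 without overlap. With the actin ratio in the model 3 of the 25 rose and 2 fell.

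Transporters were mixed, with 11 of 43 rising and 18 falling, or 19 and 11 after median centring. SLC31A1, the copper importer, rose by 1.21 ± 0.09, and SLC23A1, a transporter of vitamin C, fell by 2.38 ± 0.25 (adjusted p = 2.1e-09). Subunits of AMP-activated kinase, which the study followed, went in different directions. PRKAA1, a catalytic subunit, fell by 1.41 ± 0.16 without overlap (adjusted p = 1.4e-08), PRKAA2, its alternative, changed by 0.35 ± 0.18 (adjusted p = 0.11), and the regulatory subunit PRKAG2 rose by 0.52 ± 0.12. Of the 6 measured genes that the study also followed by quantitative PCR 2 rose and 3 fell, which turned to 3 and 2 after median centring and was 3 and 3 after quantile normalization. Of the genes the study printed as pathways for these animals only some were measured here under their symbols, 5 of 9 for AMP-activated kinase signalling, 4 of 5 for branched-chain degradation and 3 of 8 for oxidative phosphorylation. Among those measured 2 rose and 1 fell in the first, 1 rose in the second, namely IVD by 0.73 ± 0.14, and 0 were called in the third. The study printed the first 2 pathways as up and the third as down. Its lists held genes regulated in AP offspring but not alike in offspring of the high protein diet. PRKAB2, which it printed in the first pathway, was the 1 that fell here. The study had chosen these genes on arrays of this series, so that their counts are not independent evidence of a direction.

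The spread between animals also differed by stage. Over the 5340 genes that passed the filter on the array median, the median SD between animals was 0.339 at 1 dpn and 0.279 at 28 dpn, and 1455 of them had the larger SD at 28 dpn. The newborns were the extremes of a litter in weight and the weanlings came from the middle, so that stage and selection cannot be told apart here. Pearson's r between arrays of a stage, across probe sets, which are not independent replicates, ran from 0.904 to 0.949 at 1 dpn and from 0.926 to 0.963 at 28 dpn.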

How the data were processed

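Liver RNA was read on Affymetrix porcine arrays, 1 animal per array. The intensity values that the authors deposited were made with GCOS 1.1.1 per the submitters' processing notes and are on a linear scale, each array scaled to a common trimmed mean. The study's own analysis used GCRMA log2 values and a mixed model with sex, mother and weight, which the labels do not give and which was not used here. Depth has no counterpart on arrays, and the number of arrays limits the precision.

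All 23999 probe sets other than the 124 controls were tested, as log2 of the intensity plus 16, with stage as the only term in limma 3.58.1 (R 4.3.3), eBayes and Benjamini-Hochberg adjustment at 0.05, on the 29 arrays of both stages. The fit was tested on simulated data. Platform annotation gave 1 gene for 10069 probe sets, several for 198 and none for 13732. It was checked against a RefSeq table of Sscrofa11.1, used for names only, in which 9961 of the probe sets' gene IDs were found and by which 0 symbols changed. The result was 6765 genes, each represented by its probe set with the highest mean. Control measures were compared with a two-sided permutation test (100000 permutations).

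Named genes were the 15 largest rises and 15 largest falls without overlap between the stages, from each of 58 gene lists as many as 3 called members that moved with its majority and 2 that moved against it, a set of well known liver genes, the genes the study followed, and markers of other cell types. The members, lists and tests were chosen with earlier results of these data known. Alternatives were a filter on dim probe sets, median centring, quantile normalization, 1 or 64 added before the log, leaving out of each stage the array least correlated with the others, the actin or GAPDH 3'/5' ratio as covariate, spread from all 4 stages, a trended robust prior, an adjusted p of 0.01, and the median over a gene's probe sets.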

Additional observations from a re-analysis of the deposited data

How the results depend on the processing

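As reported, 3755 probe sets rose and 7357 fell, and 875 and 2181 did so at least 2-fold. Median centring gave 6674, 3792, 1879 and 1057. Quantile normalization moved the 2-fold falls to 1404. With 1 added before the log the 2-fold falls were 3389, and with 64 added 1143. The actin ratio as covariate gave 1000 rises, 1606 falls and 1369 2-fold falls, and the GAPDH ratio 2155, 4639 and 3347; the cause was not tested. The other counts under these settings, and all counts under the remaining alternatives, stayed within 1.5 times those reported. With the actin ratio in the model the changes of CD3G (-0.14), CYP2E1 (-0.21), HAMP (0.78), PCK1 (-0.22) and PTPRC (0.053) took the other sign, and the median over probe sets gave 0.84 for B2M and -0.037 for CYP27A1. The actin ratio itself differed between the stages under all 3 alternatives tried for it.

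No paired analysis was possible because the labels give no numbers that link animals of different stages. Litter, sex and weight could not enter the fit. Signal near the Tag controls limits changes of dim genes to lower limits.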
